A study of Mus musculus with 2 samples.

Results

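Transthyretin (Ttr) was the only one of 8 plasma transport and apolipoprotein genes above background in tissue around the dorsal aorta of the mouse embryo, and its level was higher above the vessel than below it. The genes are Ttr, Afp, Alb, Apoa1, Apoa2, Apob, Rbp4 and Trf. They were picked by name as carriers of the plasma, with earlier results of these data known, from 24675 genes with a symbol on the array, and all 8 were measured. Ttr stood at 6.89 on the log2 scale in dorsal against 4.32 in ventral tissue, and the other 7 lay under the background mark on both arrays. For these 7 the name of the group describes what the proteins do elsewhere in the body, and no signal above background was seen here. A level under the mark does not show that a gene is silent. Of 10 measured endothelial marker genes, 4 were also under it on both arrays, and 6, or 60%, exceeded it on at least 1. Of all genes, 28.8% exceeded it on at least 1 array.

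The study took tissue at embryonic day 10.5 from C57Bl/6 embryos, with no mutation or treatment named in the labels. The dorsal piece came from above the aorta, up to the notochord, and the ventral piece from beneath the vessel. Both were cut from the same embryos by laser from stained frozen sections, and picogram amounts of RNA were amplified before hybridisation to Affymetrix Mouse Gene 2.0 ST arrays. There was 1 array for each tissue, each titled biological replicate 4, so no value has a replicate error and no difference was tested. The sources used here do not state how many embryos went into each array. In pieces of mixed tissue, fewer cells of a type and less RNA per cell cannot be told apart.

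Plasma carrier proteins move small or fatty molecules through the blood. Transthyretin carries thyroxine and binds retinol-binding protein, which carries vitamin A. Albumin and its fetal relative alpha-fetoprotein bind fatty acids and hormones, transferrin carries iron, and the apolipoproteins form the protein part of lipoprotein particles. In the embryo these genes are known from hepatoblasts and from the visceral endoderm of the yolk sac, and Ttr also from the choroid plexus of the brain.

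Levels here are RMA values, a log2 scale on which a step of 1 is a 2-fold difference. Each gene has its own probes, so levels are compared between tissues and not between genes. Both arrays ran from about 1.45 to 14.2, with medians of 3.15 in dorsal and 3.02 in ventral tissue. As a mark of background the 95th percentile of 1365 odorant and pheromone receptor genes was used, 3.92, taken over both arrays. Their 99th percentile, 5.48, serves as a stricter mark. Of all 24675 genes, 24.2% exceeded the 95th percentile mark in dorsal and 23.8% in ventral tissue. Against this, 1 of the 8 genes exceeded it in dorsal and 1 in ventral tissue, Ttr in both cases. Marker genes were read beside the labels of the tissues. Their lists were chosen with earlier results of these data known, so this is no independent check. All 10 sclerotome markers had higher values in dorsal tissue, with Pax9 at 6.15 against 4.02. Of 10 markers of coelomic epithelium and visceral mesenchyme, 8 had higher values in ventral tissue, with Wt1 at 6.61 against 3.80, and 2 in dorsal tissue.

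**Figure D1:**
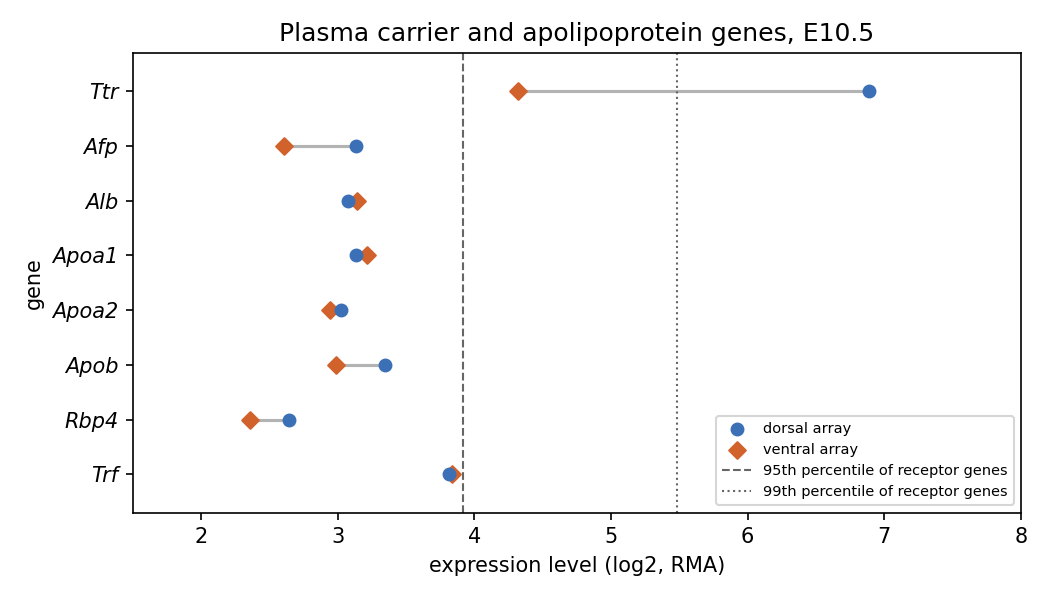
Level of each of the 8 genes (log2, horizontal axis) on the dorsal array (circles) and the ventral array (diamonds), with 1 array per tissue and no error bars. The dashed and dotted lines mark the receptor genes' 95th and 99th percentiles, 3.92 and 5.48. Ttr lies right of the dashed line on both arrays, and the other 7 genes lie left of it on both.

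Ttr encodes transthyretin, the carrier of thyroxine and of the retinol-binding protein complex. Its level was 6.89 in dorsal and 4.32 in ventral tissue. The difference, ventral minus dorsal, was -2.57 on the log2 scale, or 5.93-fold higher in dorsal tissue. The dorsal level exceeded that of 99.9% of the receptor genes on the same array. The ventral level exceeded 96.9% of them, and it lay between both marks, so the fold is less certain than the dorsal level. Taken against the stricter mark of 5.48 in place of the ventral value, the dorsal excess was at least 2.65-fold.

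A gene was kept for counting where its brighter array reached 3.10, the median of the genes' mean levels. Counts of genes 2-fold or more apart use the measured difference, also where 1 or both values were under the background mark. Of the 8 genes 6 were kept, and 1 of these, Ttr, lay 2-fold or more toward dorsal tissue. None lay as far toward ventral tissue. The background for these counts was 4.88% of all 13982 kept genes toward dorsal and 9.44% toward ventral tissue. Among the 7101 genes above the mark of 3.92 on at least 1 array, 28.8% of all genes, it was 8.46% toward dorsal and 17.7% toward ventral tissue. With 1 gene past the threshold, the share among the kept members describes Ttr and not the group. Of the kept genes 0.508% had a difference further toward dorsal than that of Ttr. Differences were wider at middle levels, so Ttr was also set beside 1172 genes whose mean level lay within 0.5 of its own. Of these, 16 genes, or 1.37%, were displaced as far or further toward dorsal, and 79, or 6.74%, were as far apart in either direction. The central 95% of their differences ran from -1.86 to 3.32, and the difference of Ttr lay outside it. This gives its place among genes of like level and is not a test, since the 8 genes were picked with earlier results known.

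**Figure D2:**
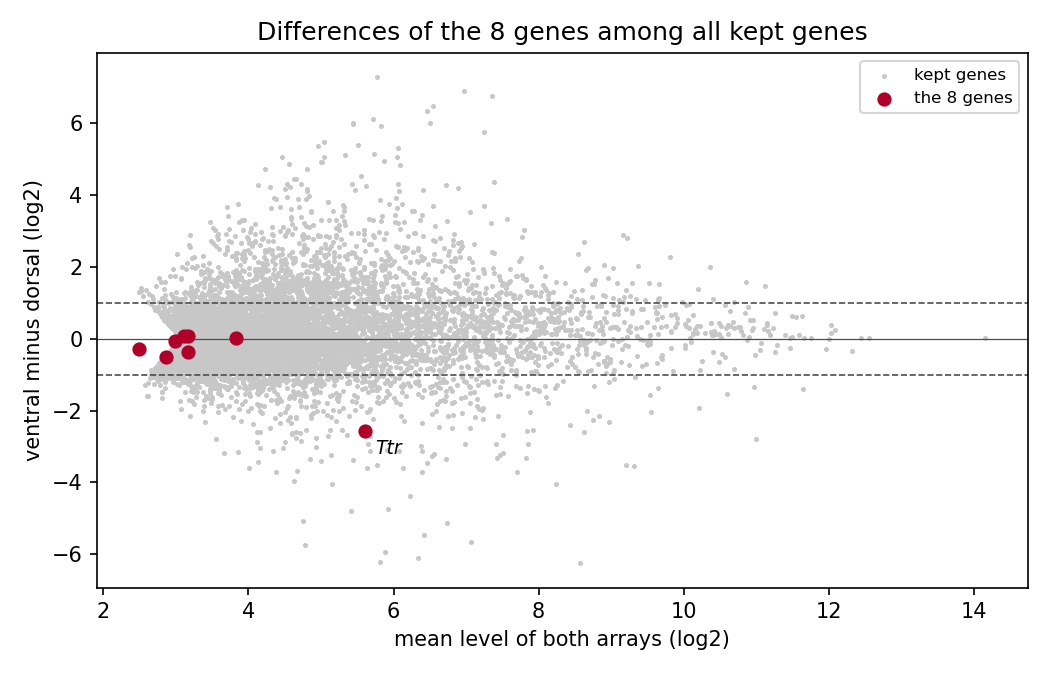
Difference, ventral minus dorsal (log2, vertical axis), against the mean level of both arrays (log2, horizontal axis). Grey points are the 13982 kept genes, red points the 8 genes, of which Apoa2 and Rbp4 were under the floor for keeping. Dashed lines mark 2-fold. Ttr, at -2.57, lies under the lower dashed line, and the 7 other genes lie between -0.53 and 0.08.

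The genes most like Ttr in these arrays were those at the smallest distance from its pair of levels, searched among 17460 other protein-coding genes. With only 2 arrays this measure says no more than that both levels are close. Gopc, a Golgi scaffold protein, stood at 7.12 in dorsal and 4.19 in ventral tissue, a distance of 0.26. Zfp9, a zinc finger gene, stood at 6.83 and 4.59, a distance of 0.28. Fcor stood at 6.69 and 4.02, a distance of 0.36. In all, 7 genes lay within a distance of 0.5 of Ttr and 62 within 1. None of the 3 nearest belongs to the lists of plasma protein genes. None could, since no other plasma protein gene measured was above 4.12 on either array.

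Rbp4, the partner that transthyretin holds in the blood, was under the floor for keeping on both arrays. Its level was 2.64 in dorsal and 2.36 in ventral tissue, above 65.6% and 56.4% of the receptor genes. The difference of -0.28 lay within 2-fold, and at this signal no difference was detectable.

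Albumin and alpha-fetoprotein were at background in both tissues. Alb, the main carrier protein of adult plasma, was at 3.08 in dorsal and 3.14 in ventral tissue, a difference of 0.06. Afp, its relative in fetal plasma, was at 3.13 in dorsal and 2.61 in ventral tissue. The Afp difference of -0.53 was the greatest among the 7 genes at background, and it lay within 2-fold. Of 11661 genes of like mean level 12.1% were as far apart in either direction, so a gap of this size was common at that level. Trf encodes transferrin, the iron carrier of plasma. Its levels of 3.81 in dorsal and 3.83 in ventral tissue were almost equal and lay just under the mark of 3.92. Trf was the only one of the 7 above the 90th percentile of the receptor genes, 3.39, on either array.

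The 3 apolipoprotein genes were at background as well. Apoa1, the main protein of high-density lipoprotein, was at 3.13 in dorsal and 3.21 in ventral tissue. Apoa2, the second protein of that particle, was at 3.02 and 2.94 and fell short of the floor for keeping. Apob, the scaffold of low-density and very-low-density particles, was at 3.35 in dorsal and 2.98 in ventral tissue. None of the 3 was 2-fold apart, with differences of 0.08, -0.08 and -0.36. Over the 7 genes at background the levels ran from 2.64 to 3.81 in dorsal and from 2.36 to 3.83 in ventral tissue. The difference was negative for 4 and positive for 3 of them, with a median of -0.08, against a median of -0.12 over all kept genes. Quantile normalization, centring and a loess on level each turned the small Apoa2 difference positive, and kept the sign of the other 7 genes, Ttr included.

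The stretches before the start sites of genes at background are shown with matches to a motif of FoxA factors. These factors are known as regulators of genes in hepatocytes. RefSeq gives promoters on GRCm38.p6 for 6 of the genes, Alb, Afp, Apoa1, Apoa2, Apob and Rbp4, in 8 entries, and not for Ttr and Trf in the table used here. The 250 bases before each start were searched on both strands for TGTTTNC, the core of sites bound by FoxA factors. This motif and the TATA box were chosen after the sequences had been seen. Capitals mark each match, and a match on the opposite strand reads GNAAACA. The sequences are written along the strand of the gene.
Alb, chr5:90460700-90460869, plus strand: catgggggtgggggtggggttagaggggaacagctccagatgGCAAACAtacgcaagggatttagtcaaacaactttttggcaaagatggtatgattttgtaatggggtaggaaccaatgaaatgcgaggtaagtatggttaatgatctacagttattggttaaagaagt
Afp, chr5:90490544-90490713, plus strand: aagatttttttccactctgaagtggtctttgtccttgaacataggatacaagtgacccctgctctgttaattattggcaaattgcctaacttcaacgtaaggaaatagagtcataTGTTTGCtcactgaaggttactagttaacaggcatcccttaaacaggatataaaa
Apoa1, chr9:46228517-46228586, plus strand: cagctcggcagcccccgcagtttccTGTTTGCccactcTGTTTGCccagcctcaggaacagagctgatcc
Apoa2, chr1:171224952-171225008, plus strand: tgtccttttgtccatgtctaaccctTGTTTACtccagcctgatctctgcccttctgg
Apob, chr12:7977531-7977587, plus strand: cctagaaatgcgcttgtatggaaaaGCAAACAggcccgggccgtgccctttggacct
Rbp4, chr19:38125531-38125571, minus strand: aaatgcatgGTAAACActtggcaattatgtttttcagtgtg

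Each of the 6 genes held TGTTTNC in at least 1 entry, 6 of 8 entries in all. The share among all 32851 RefSeq promoter entries in the same 250 bases was 17.8%, but since the letters were picked from these 6 sequences nothing is read from that gap. The letters TATAAA of the TATA box, also searched on both strands, stood in 4 of the 8 entries, from 4 of the 6 genes, and in 12.4% of all entries. Nothing is read from this gap either. Their places differed, from 7 to 2 bases before the start in Afp to 212 to 207 in Apoa2. They overlapped no match of TGTTTNC. The Apoa1 stretch held TGTTTNC at 2 places, 88 to 82 and 75 to 69 bases before the start. Rbp4 held TGTTTNC in 1 of its 2 entries, 241 to 235 bases before that start, and Apoa2 likewise in 1 of 2. These are matches of letters only. No binding was measured in this study, and all 6 genes were at background on both arrays.

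The FoxA factors were at background, while the wider list of regulators of the liver and endoderm was mixed. Of 21 measured genes of this list, 8 exceeded the mark, or 38.1%, beside 28.8% of all genes. The FoxA genes were named after their values were seen. Foxa1 was at 3.04 in dorsal and 2.79 in ventral tissue, Foxa2 at 3.41 and 2.94, and Foxa3 at 3.31 and 3.07. Hnf4a, a nuclear receptor of hepatocytes, was at 3.96 in dorsal tissue, barely over the mark, and at 3.46 in ventral tissue. Among the 16 kept genes, 1 lay 2-fold or more toward ventral and none toward dorsal tissue, beside 9.44% and 4.88% of all kept genes. The 1 was Nr2f2, a nuclear receptor of veins and mesenchyme, at 4.91 in dorsal and 6.85 in ventral tissue, a 3.83-fold difference. The other 3 named by size were within 2-fold. Gata6, an endoderm and mesoderm factor, was at 4.29 and 5.10, Gata4 at 3.89 and 4.51, and Tbx3, a T-box factor of the early liver, at 4.09 and 3.26.

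Other genes of plasma proteins and apolipoproteins were likewise near background. Of 13 measured apolipoprotein genes outside the 8, only 1 exceeded the mark, or 7.69%, beside 28.8% of all genes. This was Apoe, at 3.84 in dorsal and 3.93 in ventral tissue. Of 26 other plasma proteins of the liver, 2 exceeded the mark, or 7.69%, beside the same 28.8%. These were Orm1, an acute-phase carrier protein, at 3.78 and 3.95, and Vtn, which encodes vitronectin, at 4.12 in dorsal and 3.14 in ventral tissue. None of these 39 genes reached the 99th percentile of the receptor genes, and the highest level among them was 4.12. None of the 6 kept genes in either list was 2-fold apart, beside 14.3% of all kept genes. The median differences were -0.12 and -0.20, against -0.12 over all kept genes. Ttr, at 6.89, was thus the only gene above the stricter mark among the 47 plasma protein genes measured.

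**Figure D3:**
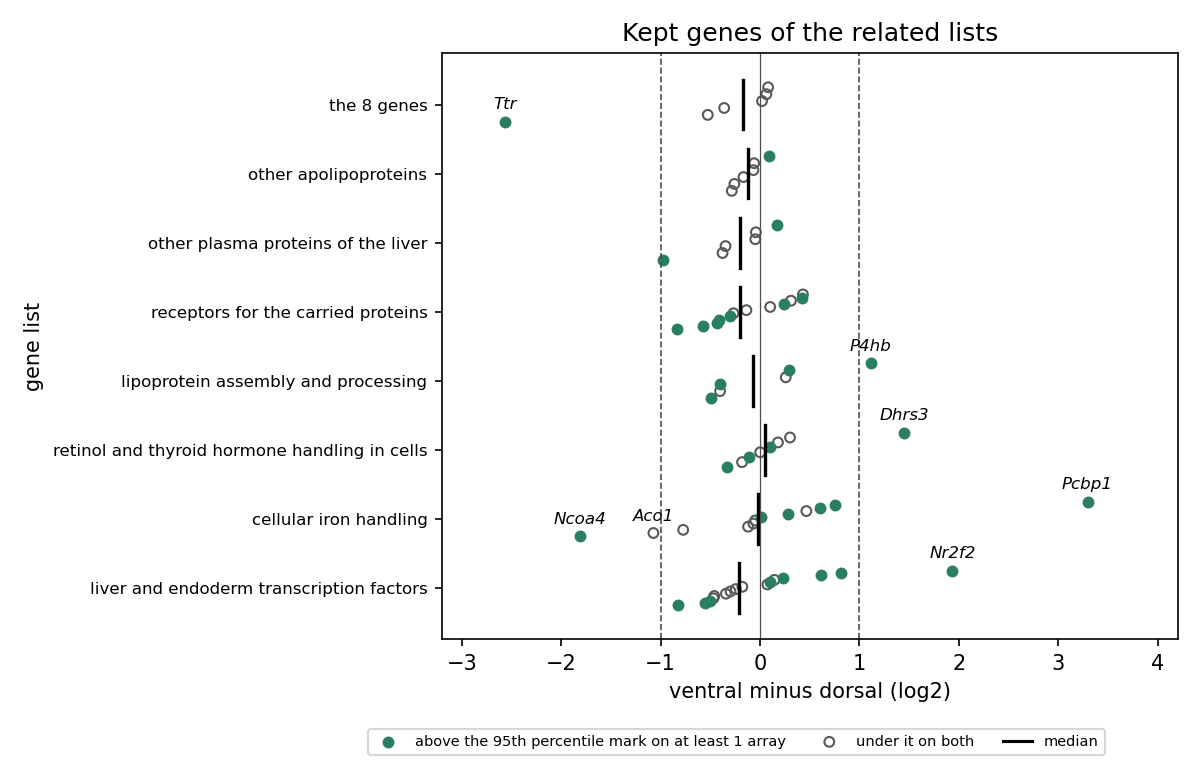
Difference, ventral minus dorsal (log2, horizontal axis), for each kept gene of the 8 and of 7 lists of related genes. Filled points exceeded the 95th percentile mark of 3.92 on at least 1 array, open points did not, bars are medians and dashed lines mark 2-fold. Ttr, at -2.57, lies furthest left, and 6 genes of the lists are at least 2-fold apart, with Pcbp1, at 3.29, furthest right.

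Chromosomal neighbours of the 8 genes were compared to see whether the Ttr difference was shared along the chromosome. The nearest measured protein-coding genes beside Ttr in the order of the GRCm38.p6 annotation are Dsg2, a desmosomal cadherin, and B4galt6, a galactosyltransferase. Dsg2 was at background, at 2.77 in dorsal and 3.07 in ventral tissue. B4galt6 was at 3.77 in dorsal and 5.16 in ventral tissue, a difference of 1.39 in the opposite direction to that of Ttr. Alb and Afp lie side by side, and Afm, the next gene after Afp and also of the albumin family, was at 2.48 and 2.46. Apoc3, beside Apoa1, was at 2.76 in dorsal and 2.67 in ventral tissue. The albumin and Apoa1 neighbourhoods were thus at background for each of these family members on both arrays.

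Receptors and cell-surface partners of the carried proteins formed another list. Of its 15 measured genes 7 exceeded the mark, or 46.7%, beside 28.8% of all genes. None of the 12 kept was 2-fold apart, beside 14.3% of all kept genes. Tfrc, the transferrin receptor that brings iron into cells, was at 4.01 in dorsal and 4.44 in ventral tissue. Lrp8, a receptor for reelin and apolipoprotein E, was at 5.0 in dorsal and 4.16 in ventral tissue, the widest gap of the list. Stra6l, a relative of the retinol-binding protein receptor Stra6, was at 4.40 and 3.96, and Gpihbp1, which anchors lipoprotein lipase to capillaries, at 4.05 and 3.48. Stra6 itself was at 4.88 in dorsal and 4.57 in ventral tissue, above the mark on both arrays while Rbp4 was at background. Lrp2 and Cubn, endocytic receptors of absorptive epithelia, were at background. Lrp2 was at 2.5 in dorsal against 2.51 in ventral tissue, and Cubn at 2.49 against 2.33. Stra6, Lrp2 and Cubn were named after their values were seen.

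In the list of lipoprotein assembly and processing, 4 of 15 measured genes exceeded the mark, or 26.7%, beside 28.8% of all genes. P4hb, protein disulfide isomerase and a subunit of the microsomal triglyceride transfer complex, was at 6.64 in dorsal and 7.76 in ventral tissue, a 2.16-fold difference. P4hb was the 1 gene of 6 kept that was at least 2-fold apart, beside 14.3% of all kept genes. It was within 2-fold after quantile normalization, at 0.81 on the log2 scale, and after a loess on level, at 0.91. Mttp, the lipid-transferring subunit that loads apolipoprotein B, was at background, at 2.56 in dorsal against 2.66 in ventral tissue, and was named after its values were seen. Tm6sf2, a lipoprotein secretion factor, was at 4.66 and 4.17, Sar1b, a small GTPase of vesicles leaving the endoplasmic reticulum, at 4.09 and 3.69, and Surf4, a cargo receptor there, at 3.95 and 4.24. These genes also serve secretion in general.

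Of the genes that handle retinol and thyroid hormone inside cells, 4 of 13 exceeded the mark, or 30.8%, beside 28.8% of all genes. Crabp2, which delivers retinoic acid to its receptor, was at 7.98 in dorsal against 7.65 in ventral tissue, and Crabp1, a related binding protein, at 4.60 and 4.48. Dhrs3, which turns retinaldehyde back into retinol, was at 3.79 in dorsal and 5.24 in ventral tissue, at least 2.49-fold higher in ventral tissue. No other gene among the 8 kept was 2-fold apart, beside 14.3% of all kept genes. Crym, a cytosolic thyroid hormone binding protein, was at 3.86 and 3.95. Dio2 and Dio3, which activate and inactivate thyroid hormone, and the receptor genes Thra and Thrb were under the mark on both arrays. Dio2 was at 3.0 in dorsal against 3.30 in ventral tissue, Dio3 at 2.70 against 2.71, Thra at 3.16 on both and Thrb at 3.41 against 3.23. These 4 were named after their values were seen.

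In the list of cellular iron handling, 6 of 16 genes exceeded the mark, or 37.5%, beside 28.8% of all genes. By measured difference 3 of 12 kept genes were at least 2-fold apart, beside 14.3% of all kept genes. Pcbp1, an RNA-binding protein that also delivers iron to ferritin, was at 4.72 in dorsal and 8.01 in ventral tissue, 9.81-fold higher in ventral tissue. Ncoa4, the receptor that carries ferritin to lysosomes, was at 4.16 in dorsal and 2.35 in ventral tissue, at least 1.18-fold higher in dorsal tissue since the ventral value was at background. Aco1, an iron-sensing RNA-binding protein, was at 3.63 and 2.56, both at background, so no fold is given. Its difference of -1.07 came within 2-fold after quantile normalization (-0.97), centring (-0.95) and a loess on level (-0.92). Aco1 was named after its values were seen. Fth1, the ferritin heavy chain, was at 7.43 and 8.19, and Ireb2, a second iron sensor, at 3.99 and 4.59. Pcbp1 has a close paralog and Fth1 has processed copies in the genome, so probes for them may read relatives and their values are uncertain. Over the 7 lists, 66 kept genes had a median difference of -0.07, and 4 lay 2-fold or more toward ventral and 2 toward dorsal tissue. These shares, 6.06% and 3.03%, were under the 9.44% and 4.88% of all kept genes.

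Markers were read for cell types that are known for Ttr or for plasma proteins. All 10 measured genes of choroid plexus and roof plate were at background on both arrays, with levels from 2.33 to 3.69 in dorsal and 2.12 to 3.62 in ventral tissue. Folr1 was at 3.56 and 3.62, Kl at 2.5 and 2.66, and Otx2 at 2.66 and 2.51, all 3 named after their values were seen. The summed level of this list, on the linear scale, was 83.9 in dorsal and 73.5 in ventral tissue. With all 10 genes at background this is a sum of background signal, and nothing is read from the gap. Of 12 genes of the visceral yolk sac, 3 exceeded the mark, or 25%, beside 28.8% of all genes, and the endocytic receptors Cubn, Amn and Lrp2 did not. Dab2, an endocytic adaptor, was at 5.60 and 5.80, Cited1 at 4.41 and 4.19, and Sox17 at 4.68 and 4.47. Dab2, Cited1 and Sox17 are known from other cell types too. The summed level was 165 in dorsal and 163 in ventral tissue.

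Of 14 genes of hepatoblasts and gut endoderm, 5 exceeded the mark, or 35.7%, beside 28.8% of all genes. The epithelial genes Epcam and Cdh1, named after their values were seen, did not. Epcam was at 2.71 in dorsal against 3.04 in ventral tissue and Cdh1 at 3.09 and 2.90. Krt18, a keratin of simple epithelia, was at 4.27 and 5.17, and Dlk1 at 4.92 and 4.85. Sox17 and Hnf4a, given above, also exceeded it, as did Krt8 at 5.14 and 5.09, named after its values were seen. The summed level was 199 in dorsal and 196 in ventral tissue. Of the genes kept in the hepatoblast, yolk sac and choroid plexus lists, 7, 6 and 5 in number, none was 2-fold apart between the tissues. The share of all kept genes was 14.3%, and with so few genes nothing is read from this. The part of any of these cells in the Ttr difference was not tested.

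**Figure D4:**
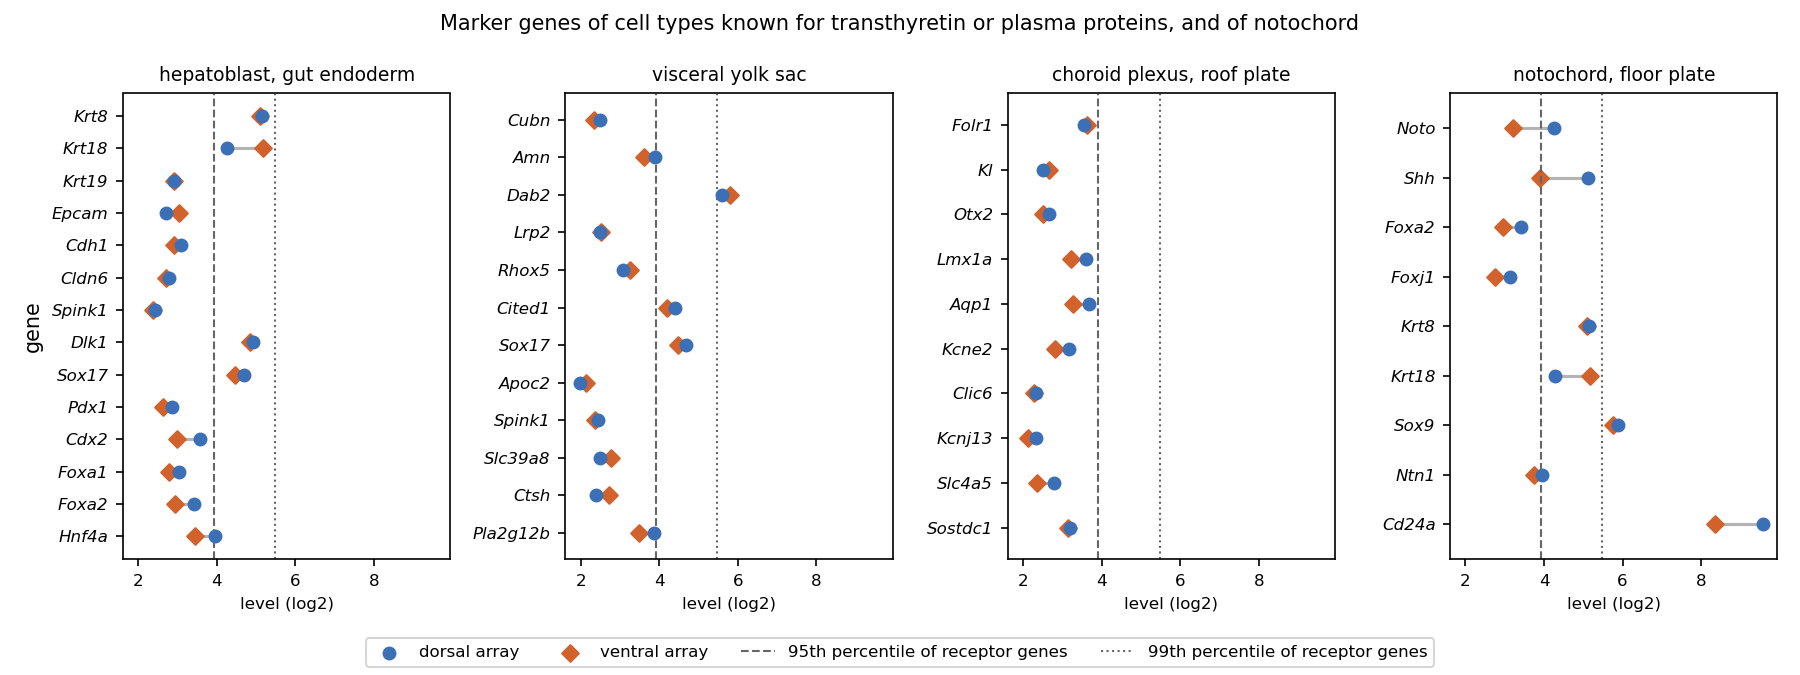
Levels (log2, horizontal axes) of marker genes on the dorsal array (circles) and the ventral array (diamonds) in 4 lists of cell types, with the 95th and 99th percentiles of receptor genes as dashed and dotted lines. All 10 choroid plexus and roof plate genes lie left of the dashed line, and Shh, Noto and Cd24a of the notochord list lie further right in dorsal tissue.

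Most markers of notochord and all those of sclerotome had higher values in dorsal tissue, as Ttr did. Of 9 kept notochord and floor plate genes, 7 exceeded the mark, or 77.8%, beside 28.8% of all genes. By measured difference 3 lay 2-fold or more toward dorsal tissue, beside 4.88% of all kept genes. Shh, the ligand secreted by the notochord, was at 5.12 in dorsal and 3.91 in ventral tissue, Noto at 4.24 and 3.22, and Cd24a, a surface protein of many embryonic epithelia, at 9.56 and 8.36. Against the mark the dorsal excess was at least 2.30-fold for Shh and at least 1.25-fold for Noto. Krt18 went the other way, at 4.27 and 5.17, the 1 gene of the 9 with a higher value in ventral tissue. Foxa2, known from the notochord and as a regulator of Ttr in liver, was at background on both arrays. The summed linear level of the list was 959 in dorsal and 505 in ventral tissue, and 203 and 176 without Cd24a, which carried most of it. Of 10 sclerotome genes, 7 exceeded the mark, or 70%, and 3 lay 2-fold or more toward dorsal tissue, beside the same 28.8% and 4.88%. These were Pax9, Col2a1 at 5.54 against 3.98, and Uncx at 4.35 against 3.0, at least 1.34-fold against the mark. The summed level of the sclerotome list was 573 against 296, and 317 against 166 without Twist1, its brightest gene. Meox1 was at 4.05 against 3.06. The part of these cells in the Ttr difference was not tested.

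Most markers of coelomic epithelium had higher values in ventral tissue, and those of endothelium were mixed. Of 10 genes of coelomic epithelium and visceral mesenchyme, 4 lay 2-fold or more toward ventral and none toward dorsal tissue by measured difference. The shares of all kept genes were 9.44% and 4.88%. Against the mark the ventral excess was at least 6.46-fold for Wt1 and at least 5.52-fold for Tcf21, at 2.79 in dorsal and 6.38 in ventral tissue. It was at least 1.92-fold for Emx2, at 2.96 and 4.86, and at least 1.38-fold for Podxl, at 3.18 and 4.38. Of the 10, 8 had higher ventral values, while Foxf1, at 3.76 and 3.45, and Msln, at 3.68 and 3.46, had higher dorsal values at background. Of 7 kept endothelial genes, 3 lay 2-fold or more toward ventral tissue by measured difference, beside the same 9.44%. These were Cdh5 at 4.22 and 6.64, Emcn at 3.27 and 5.15, and Kdr at 3.75 and 4.83. Against the mark the excess was at least 2.34-fold for Emcn and at least 1.88-fold for Kdr. Pecam1 was at 4.02 and 4.99. Of all 10 endothelial genes, 5 had higher values in each tissue, and of the 6 above the mark 5 were higher in ventral tissue and Eng, at 4.09 and 3.53, in dorsal tissue. Foxf1, Msln and Eng were named after their values were seen. Red cells lie in the blood with the plasma proteins. The embryonic globin gene Hba-x was at 12.11 in dorsal against 11.81 in ventral tissue. Of 9 kept erythroid genes 1, Klf1 at 5.35 and 4.25, was 2-fold apart, beside 14.3% of all kept genes. Slc4a1 was at 4.15 and 4.29 and Alas2 at 3.40 and 4.10. None of 7 kept macrophage genes was 2-fold apart, beside the same 14.3%. Cx3cr1 was at 6.07 and 5.62, Fcer1g at 4.35 and 3.94, C1qc at 4.66 and 4.42 and C1qb at 3.90 and 4.00.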

How the data were processed

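The authors deposited log2 expression values made with Affymetrix Expression Console and RMA, per the submitters' processing notes. The sources used here give no version or genome build and do not say which arrays shared a normalization. Of 25429 features, 24675 had 1 symbol in the platform annotation, and 754 had none and were left out. Arrays were assigned to tissues by title. With 1 array per tissue, values and differences (ventral minus dorsal) are descriptions, and the number of arrays limits their precision. Where the lower level was under the 95th percentile of 1365 receptor genes, folds are lower bounds against it, with none where both were under it. Counts of genes 2-fold or more apart use the measured difference and not this bound.

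The 8 genes, the 7 related lists, the 9 marker lists and the background reference were chosen with earlier results of these data known. Named genes were the 8, up to 4 of each list with the greatest difference among those above the mark, and the 3 genes nearest to Ttr; others are said to be named after their values were seen, as were the chromosomal neighbours, Amn and Twist1. The listed genes with no value in the table used here were not analysed. Steps were tested on simulated data. Python 3.11.15, numpy 2.4.6, pandas 2.3.3, statsmodels 0.14.6 and matplotlib 3.10.9 were used.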

Additional observations from a re-analysis of the deposited data

How the results depend on the processing

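The Ttr difference, -2.57 on the log2 scale, ran from -2.75 after quantile normalization of both columns to -2.45 after centring, with -2.64 after a loess on level (span 0.3), and stayed past 2-fold in each. With the background mark at the 99th percentile of the receptor genes the Ttr fold became at least 2.65, and 0 of the 8 genes exceeded the mark in ventral tissue. With the mark at the 90th percentile, 2 exceeded it in dorsal and 2 in ventral tissue, Ttr and Trf. Ttr was the 1 kept gene of the 8 past the threshold at 1.5-fold, 2-fold and 3-fold, with no floor, and with a floor at the 95th percentile mark. Related genes higher in ventral tissue numbered 8 at 1.5-fold and 2 at 3-fold. Those higher in dorsal tissue numbered 6 at 1.5-fold and 1 at 3-fold, and 1 with each of the 3 scalings and with the higher floor. Their median difference, -0.07, became 0.055 after centring, 0.055 after the loess and 0.10 with the higher floor. Over all kept genes, 2286 were higher in ventral and 2099 in dorsal tissue at 1.5-fold, and 626 and 228 at 3-fold. No paired analysis was possible because each tissue has 1 array, although both carry the same replicate number. Leaving out an array was not possible for the same reason. Signal over background limits the 7 other genes: a difference between tissues was not detectable for them.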
